A study of Mus musculus with 6 samples.

Results

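The genes described here encode potassium channels and their subunits, 92 of the 24214 features in the deposited tables. They were chosen by symbol, as every gene named Kcn followed by further letters and a closing number, and the rule itself uses no measured value. The rule leaves out 3 other Kcn symbols, of which Kcnq1ot1 is a non-coding RNA. The 393P_vector and 393P_ZEB1 cells derive from an epithelial murine lung adenocarcinoma (LUAD) line, labelled as KP lung cancer cells of the C57BL/6 strain. The 393P_ZEB1 group had been transfected with an expression vector for ZEB1, a transcription factor that activates epithelial-to-mesenchymal transition, and the 393P_vector group with the empty vector. Each group had 3 samples, numbered 1 to 3, and all were grown in the same serum-containing medium. The paper describes stable transfectants obtained by drug selection. The labels do not say whether a line was a clone or a pool, or whether the samples of a group were separate cultures, so the p-values measure the spread between these samples only. Total RNA was sequenced on the SOLiD platform, with 54442450 to 79158012 counts per sample.

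Potassium channels let potassium leave the cell and so hold the membrane potential negative, which in turn drives calcium entry, secretion and the control of cell volume. Voltage-gated members open when the membrane depolarizes. Calcium-activated members open when cytosolic calcium rises. Inward rectifiers and the tandem-pore leak channels set the resting potential, and auxiliary subunits alter the gating or the delivery of the pore-forming ones. In airway epithelium, basolateral potassium channels provide the driving force for chloride secretion, and calcium-activated channels have been linked to cell migration.

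Potassium channel mRNAs moved in both directions in 393P_ZEB1 cells. The leak channel Kcnk1, the calcium-activated channel Kcnn3 and the voltage-gated channel Kcnh2 fell to between 0.168 and 0.377 CPM (counts scaled to library size, with edgeR's TMM factors). The voltage-gated channel Kcnq5, the silent subunit Kcns3 and the voltage-gated channel Kcnc2 rose from comparably low levels. The calcium-activated channel Kcnn4, already abundant in 393P_vector, rose 3.03-fold. Of the 92 genes, 29 passed edgeR's filter on low counts and were tested. Of these 29, 11 were higher and 6 were lower in 393P_ZEB1 at an adjusted p below 0.05 (edgeR's quasi-likelihood test, adjusted over 13892 genes). Among all genes tested, 18.3% were called higher and 19.3% lower, 37.6% in all. The filter itself bears on this count, since 3 of the 11 higher genes (Kcnc2, Kcnj2 and Kcnq5) and 1 of the 6 lower ones (Kcnk1) reached the filter level in all samples of the higher group only. The median log2 fold change of the 29 was 0.32, against -0.02 over all genes tested. Called members with at least a 4-fold change numbered 10, and over all genes tested 8.01% were called with a change of that size. For each of the 17 called members the groups did not overlap, which gives an exact permutation p of 0.1, the smallest that 3 samples against 3 allow. Being called favours such separation, so it adds no support to the 17 calls. Of the 12 tested members not called, 2 also had groups that did not overlap. Over all genes tested, called or not, such groups made up 26.3% in the higher and 26.5% in the lower direction.

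**Figure D1:**
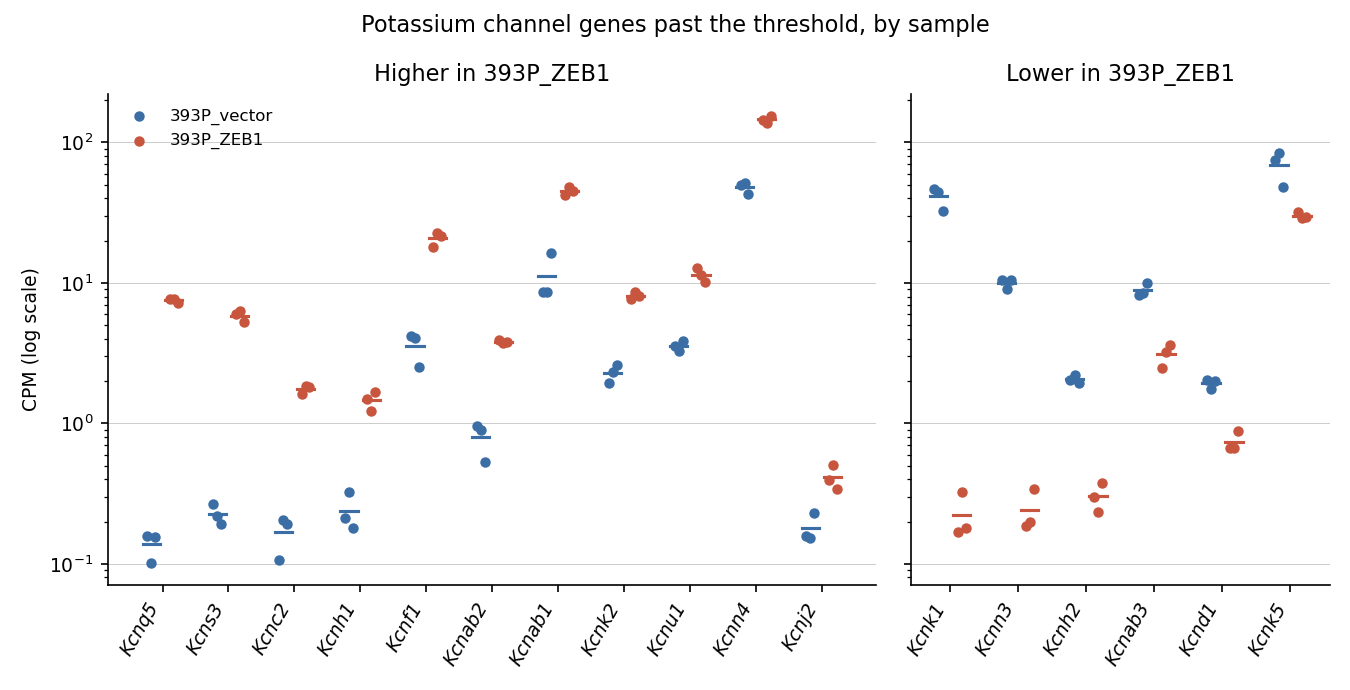
Level of the 17 called potassium channel genes in each sample, in CPM on a log axis. Points are the 3 samples of 393P_vector (blue) and of 393P_ZEB1 (red) and bars their means. No blue and red points of a gene overlap. Kcnk5 has the highest mean in 393P_vector (69 CPM) and Kcnn4 the highest in 393P_ZEB1 (146 CPM).

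The 393P_ZEB1 samples also differed from the 393P_vector samples in the markers that define the line. Zeb1 rose from 21.5 ± 0.435 to 51.7 ± 3.01 CPM (SD, n = 3), counting any transgene reads that align to it. The log2 fold change of Zeb1 was 1.26, against a median of 0.64 for its chromosome 18. The epithelial cadherin Cdh1 fell from 162 ± 61.1 to 9.51 ± 0.718 CPM (SD, n = 3), and 9 of 10 epithelial markers were called lower and 6 of 8 mesenchymal markers higher. The lung epithelial markers Nkx2-1, Sftpc, Sftpb and Napsa were at or below 0.048 CPM on average in both groups. The other 2 genes of that list of 6 were detected, with Hnf4a at 33.2 ± 5.45 and 301 ± 6.57 CPM (called higher) and Sox2 at 5.05 ± 1.92 and 3.98 ± 0.54 CPM (SD, n = 3, not called). Since several members are best known from nerve and muscle, markers of those cells were read as well. The summed level of the 6 neuronal markers in the tables was 3.99 to 5.1 CPM in 393P_vector and 5.62 to 7.4 CPM in 393P_ZEB1 samples, with 2 higher (Snap25 and Syn1) and 1 lower (Tubb3) of 4 tested. For 10 heart and skeletal muscle markers the sums were 73.3 to 90.1 and 67.5 to 100 CPM, mostly from Tnnt2, which was not called. Of 6 of these tested, 1 was called lower. For 4 smooth muscle markers the sums were 136 to 237 and 178 to 202 CPM. These came mostly from Smtn, at 196 ± 54.5 and 192 ± 12.9 CPM (SD, n = 3, not called). All 4 were tested, and 1 was called lower. Immune markers (5 in the tables) summed to 2.02 to 4.12 and 1.51 to 1.9 CPM, with 0 called of 3 tested. Endothelial markers (5) summed to 2.82 to 3.13 and 0.846 to 1.4 CPM, with 1 called lower of 3 tested. The part of other cells in the results was not tested, and in bulk RNA fewer cells with a transcript and less of it per cell cannot be told apart. The 393P_vector replicate 3 stood apart from replicates 1 and 2 in several members, and values without it are given where it matters.

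Levels can be compared between genes only per length, and CPM per kilobase of deposited exon length (CPM per kb) is used for that. In 393P_vector cells 3 channels led. Kcnn4, an intermediate-conductance calcium-activated channel known from red cells, lymphocytes and secretory epithelia, was at 23.7 ± 2.39 CPM per kb (SD, n = 3). Kcnk5, an acid-inhibited leak channel known from kidney epithelium, was at 20.5 ± 5.43 CPM per kb (SD, n = 3). Kcnk1, a weakly conducting leak channel, was at 17.9 ± 3.24 CPM per kb (SD, n = 3). These means lay within about 1 SD of their neighbours. Below them came the Kv beta subunits Kcnab1 at 3.75 ± 1.49 and Kcnab3 at 3.52 ± 0.383 CPM per kb (SD, n = 3), whose order was within their spread.

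In 393P_ZEB1 cells Kcnn4 stood alone at 71.9 ± 4.14 CPM per kb (SD, n = 3). Kcnab1 followed at 15.2 ± 0.96 and Kcnk5 at 8.97 ± 0.471 CPM per kb (SD, n = 3). Next were the silent subunit Kcnf1 at 4.33 ± 0.516 and the Slo family channel Kcnu1 at 3.27 ± 0.393 CPM per kb (SD, n = 3). Kcnk2 at 2.05 ± 0.11 and Kcns3 at 1.92 ± 0.163 CPM per kb (SD, n = 3) were within their spread of each other, as were Kcnn1 at 1.4 ± 0.131 and Kcnab3 at 1.23 ± 0.229 CPM per kb (SD, n = 3). Kcnk1 was no longer among the 10 leading members in this group, at 0.0973 ± 0.0377 CPM per kb (SD, n = 3).

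Summed over all 92 members, the level per length was 83.6, 86.3 and 68.1 CPM per kb in 393P_vector replicates 1 to 3 and 114.9, 113 and 120.0 CPM per kb in 393P_ZEB1 replicates 1 to 3. The sum is thus higher in every 393P_ZEB1 sample. Kcnn4 alone made up 30.0% ± 0.775 of it in 393P_vector and 62.0% ± 1.70 in 393P_ZEB1 samples (SD, n = 3). Kcnk1 and Kcnk5 made up 22.5% ± 1.70 and 25.6% ± 3.92 in 393P_vector samples, against 0.0844% ± 0.0346 and 7.74% ± 0.48 in 393P_ZEB1 samples (SD, n = 3). These shares describe mRNA and include auxiliary subunits, which form no pore.

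**Figure D2:**
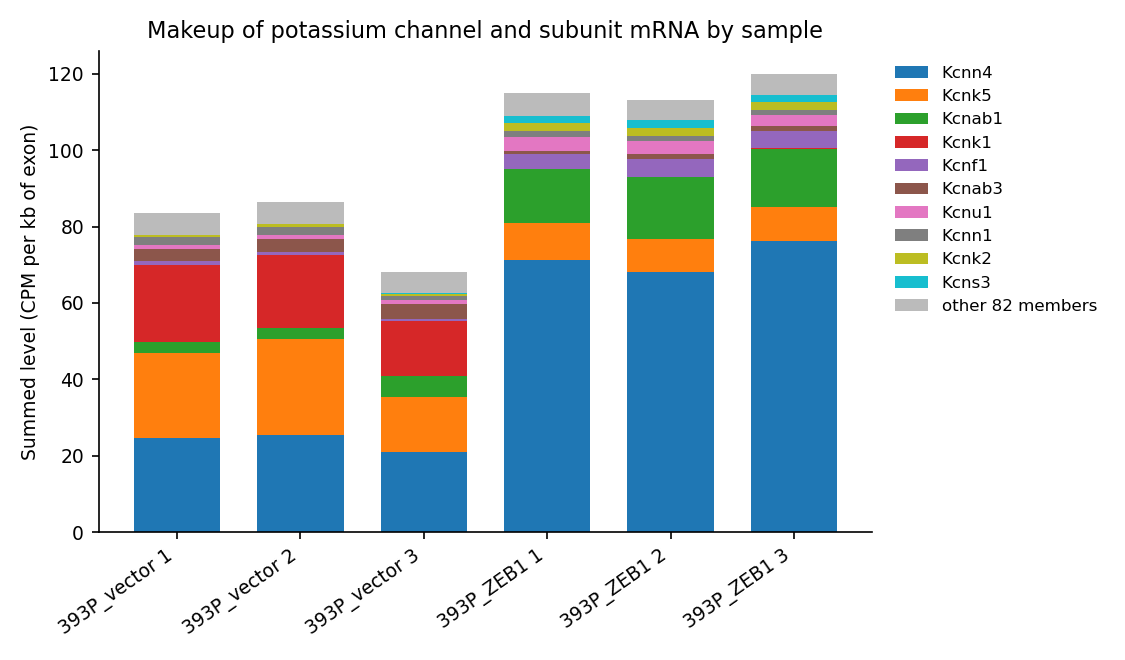
Summed level of the 92 potassium channel and subunit genes per sample, in CPM per kb of exon, split into the 10 members with the highest level over both groups and the other 82. Kcnk1 (red) takes 22.5% of the bars on average in 393P_vector and is barely visible in 393P_ZEB1, where Kcnn4 (blue) takes 62.0%.

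Among the tandem-pore leak channels, which stay open at rest, 4 of 14 members were tested, with 1 higher and 2 lower. Kcnk1 (chromosome 8, 125995102 to 126030688) was at 46.8, 44.3 and 32.8 CPM in 393P_vector replicates 1 to 3 and at 0.168, 0.324 and 0.18 CPM in 393P_ZEB1 replicates 1 to 3. The 393P_ZEB1 values rest on 9, 18 and 11 counts, against 2647, 2606 and 2724 counts in 393P_vector replicates 1 to 3. Its log2 fold change was -7.51 ± 0.29 (SE, edgeR adjusted p = 1.73e-06), the largest decrease among the members. All 3 of its exons held more than 10 reads in every 393P_vector sample.

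Kcnk5 (chromosome 14, 20140058 to 20181782) was at 74.7, 83.7 and 48.5 CPM in 393P_vector and at 31.9, 28.9 and 29.6 CPM in 393P_ZEB1 replicates 1 to 3. It fell by less than Kcnk1, with a log2 fold change of -1.19 ± 0.20 (SE, edgeR adjusted p = 0.00257). The range over fits that each left out 1 sample was -1.39 to -1.03. Kcnk2 (chromosome 1, 189207930 to 189344192), a leak channel opened by membrane stretch and lipids, moved the other way. It was at 1.94, 2.31 and 2.62 CPM in 393P_vector and at 7.7, 8.57 and 8.07 CPM in 393P_ZEB1 samples, a log2 fold change of 1.82 ± 0.17 (SE, edgeR adjusted p = 0.000115). Only 1 of the 9 counted exons of Kcnk2 held more than 10 reads in any sample. If each read is counted in 1 exon, the exon held at least 80.6%, 83.2% and 83.8% of the Kcnk2 reads in 393P_ZEB1 replicates 1 to 3. In 393P_vector replicates 1 to 3 the same lower limit was 27.3%, 41.2% and 63.3%. Which exon it is, and whether it is the same in each sample, was not analysed here. Kcnk6 was tested and not called, with means of 0.442 ± 0.104 and 0.418 ± 0.0744 CPM (SD, n = 3).

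The calcium-activated channels of the SK and IK family divided in the same manner. Kcnn3 (chromosome 3, 89520164 to 89672494), a small-conductance channel, was at 10.6, 9.11 and 10.5 CPM in 393P_vector and at 0.187, 0.198 and 0.344 CPM in 393P_ZEB1 samples. The log2 fold change was -5.35 ± 0.26 (SE, edgeR adjusted p = 4.66e-06). Between 5 and 8 of its 8 exons held more than 10 reads in 393P_vector samples, and 0 or 1 in 393P_ZEB1 samples. Kcnn4 (chromosome 7, 24370263 to 24385212) was at 49.96, 51.8 and 42.6 CPM in 393P_vector and at 145, 138 and 155 CPM in 393P_ZEB1 samples. Its log2 fold change was 1.60 ± 0.11 (SE, edgeR adjusted p = 2.87e-05). All 10 Kcnn4 exons held more than 10 reads in all 6 samples, a measure that cannot show where in the gene the increase lies.

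Kcnn1, the remaining tested member of that family, was at 8.29, 9.01 and 4.03 CPM in 393P_vector and at 6.24, 5.49 and 5.22 CPM in 393P_ZEB1 samples. It was not called, with a log2 fold change of -0.33 ± 0.29 (SE, edgeR adjusted p = 0.412). That outcome changed when 393P_vector replicate 3 was left out, with a log2 fold change of -0.61 for Kcnn1 (edgeR adjusted p = 0.00311). In that fit 3700 genes were called higher and 3776 lower of 14106 tested. With all samples these numbers were 2539 and 2679 of 13892. Kcnn2 was not tested, with at most 8 counts in a sample.

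Of the Slo family, large channels gated by calcium, sodium or pH, 2 of 4 were tested. Kcnu1 (chromosome 8, 25849623 to 25937934), best known from sperm, was at 3.59, 3.3 and 3.85 CPM in 393P_vector and at 12.9, 11.4 and 10.1 CPM in 393P_ZEB1 samples. The log2 fold change was 1.67 ± 0.16 (SE, edgeR adjusted p = 0.000118). Of its 27 exons, 15, 16 and 16 held more than 10 reads in 393P_ZEB1 replicates 1 to 3. Which exons these were was not analysed here. Kcnma1, the pore of the big-conductance channel, was at 0.337 ± 0.086 and 0.425 ± 0.0692 CPM (SD, n = 3) and was not called. Its beta subunit Kcnmb4 was also not called and was at 0 counts in 393P_vector replicate 3.

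Voltage-gated pore-forming members numbered 30, of which 11 were tested, with 3 higher and 2 lower. Kcnq5 (chromosome 1, 21398403 to 21961942), a KCNQ channel that in neurons carries the muscarine-sensitive current, showed the largest increase of all members. It was at 0.159, 0.102 and 0.156 CPM in 393P_vector, which are 9, 6 and 13 counts, and at 7.74, 7.63 and 7.24 CPM in 393P_ZEB1 samples. The log2 fold change was 5.73 ± 0.22 (SE, edgeR adjusted p = 1.73e-06). More than 10 reads were found in 0 of its 15 exons in each 393P_vector sample and in 6, 6 and 7 exons in 393P_ZEB1 replicates 1 to 3.

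Kcnc2 (chromosome 10, 112271123 to 112466304), a fast delayed rectifier of the Shaw family, was at 0.106, 0.204 and 0.193 CPM in 393P_vector and at 1.63, 1.85 and 1.8 CPM in 393P_ZEB1 samples. Its log2 fold change was 3.36 ± 0.28 (SE, edgeR adjusted p = 6.27e-05), while Kcnc1 of the same family was not called. The EAG family held a pair that moved in opposite directions. Kcnh1 (chromosome 1, 192190872 to 192510158), the ether-a-go-go channel, was at 0.212, 0.323 and 0.181 CPM in 393P_vector and at 1.5, 1.22 and 1.67 CPM in 393P_ZEB1 samples, a log2 fold change of 2.63 ± 0.29 (SE, edgeR adjusted p = 0.000314). Kcnh2 (chromosome 5, 24319589 to 24351604), the HERG channel that repolarizes heart muscle, was at 2.03, 2.23 and 1.93 CPM in 393P_vector and at 0.299, 0.234 and 0.377 CPM in 393P_ZEB1 samples. The log2 fold change of Kcnh2 was -2.75 ± 0.24 (SE, edgeR adjusted p = 8.99e-05). The increase of Kcnh1 was measured over few reads, and only 1 of its 12 exons held more than 10 reads in any sample.

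Kcnd1 (chromosome X, 7823843 to 7836503), an A-type channel, was at 2.03, 1.77 and 2.01 CPM in 393P_vector and at 0.673, 0.666 and 0.884 CPM in 393P_ZEB1 samples. It was called lower, with a log2 fold change of -1.38 ± 0.21 (SE, edgeR adjusted p = 0.00159). The Shaker channels Kcna1, Kcna2 and Kcna4 were tested and not called, all with means below 1 CPM in both groups.

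Silent subunits form no working channel alone and alter Shab channels by assembling with them. Only 2 of 10 were tested, and both were higher. Kcns3 (chromosome 12, 11090202 to 11150842) was at 0.265, 0.221 and 0.193 CPM in 393P_vector and at 6.02, 6.26 and 5.31 CPM in 393P_ZEB1 samples. Its log2 fold change was 4.70 ± 0.21 (SE, edgeR adjusted p = 3.15e-06). Kcnf1 (chromosome 12, 17172100 to 17176888), a gene of 1 exon, was at 4.19, 4.03 and 2.5 CPM in 393P_vector and at 18, 22.8 and 21.5 CPM in 393P_ZEB1 samples, a log2 fold change of 2.54 ± 0.23 (SE, edgeR adjusted p = 9.56e-05). Kcnb2, a Shab channel, was not tested and had at most 11 counts in a sample.

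Of 15 inward rectifiers 2 were tested. Kcnj2 (chromosome 11, 111066164 to 111076825), the strong inward rectifier of heart and muscle, was at 0.159, 0.153 and 0.229 CPM in 393P_vector and at 0.393, 0.504 and 0.344 CPM in 393P_ZEB1 samples. These are 9 to 28 counts. Its log2 fold change of 1.16 ± 0.32 (SE, edgeR adjusted p = 0.0227) was the least secure call among the 17, since it was lost when any of 4 samples was left out: 393P_vector replicate 1 or 2 (edgeR adjusted p = 0.073 and 0.0693) or 393P_ZEB1 replicate 1 or 2 (edgeR adjusted p = 0.058 and 0.0874). Kcnj14 was tested and not called.

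The auxiliary Kv beta subunits bind the inner face of Shaker channels and have the fold of an oxidoreductase. All 3 were tested and called. Kcnab1 (chromosome 3, 65109643 to 65378219) was at 8.6, 8.58 and 16.3 CPM in 393P_vector and at 42.4, 48.2 and 45.2 CPM in 393P_ZEB1 samples, a log2 fold change of 2.02 ± 0.26 (SE, edgeR adjusted p = 0.0007). Without 393P_vector replicate 3, the highest of its group, the change of Kcnab1 was 2.40. Kcnab2 (chromosome 4, 152390740 to 152477549) was at 0.954, 0.901 and 0.53 CPM in 393P_vector and at 3.93, 3.73 and 3.78 CPM in 393P_ZEB1 samples, a log2 fold change of 2.27 ± 0.25 (SE, edgeR adjusted p = 0.000306). Kcnab3 (chromosome 11, 69326258 to 69333041) fell, from 8.16, 8.5 and 9.98 CPM in 393P_vector to 2.47, 3.22 and 3.6 CPM in 393P_ZEB1 samples, a log2 fold change of -1.52 ± 0.19 (SE, edgeR adjusted p = 0.000563). The tested Shaker channels, which these subunits bind, were all below 1 CPM.

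In Kcnab2, 1 or 2 of its 17 exons held more than 10 reads. Its longest annotated exon equals 63.3% of the counted exon length. At these counts the number of exons cannot show how evenly the reads were spread. In Kcnab1, 13 or 14 of 14 exons held more than 10 reads in 393P_ZEB1 samples, but an annotated transcript on the opposite strand lies within this gene and whether the counting used strand is not given in the sources used here. Of the other auxiliary genes, Kcne3 was tested and not called, and no KChIP gene passed the filter.

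**Figure D3:**
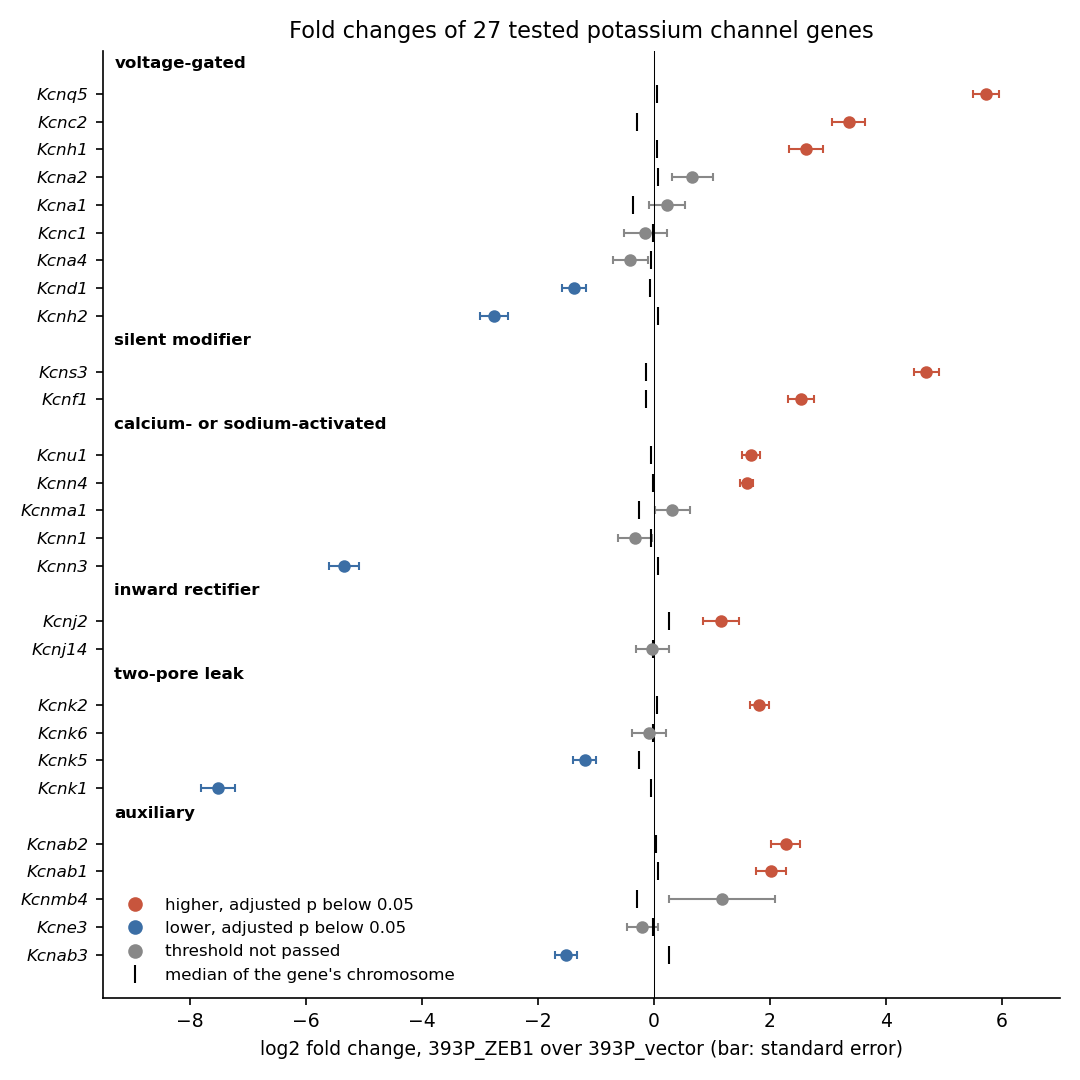
Log2 fold changes of 27 tested members by role, with standard errors from edgeR; red and blue mark genes called higher and lower, grey those that did not pass. The black tick is the median of all genes tested on the same chromosome, and every coloured point lies beyond its tick, on the side of its own direction.

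The median change differed between chromosomes, so each change was set beside its chromosome. The called members lie on 11 chromosomes, whose median log2 fold changes ran from -0.30 on chromosome 10 to 0.27 on chromosome 11. After subtraction of that median all 17 kept their direction, and the smallest remaining difference was 0.90, for Kcnj2. Kcnab3 fell on chromosome 11, whose median was above 0. The genes Kcnn2 and Kcng2 on chromosome 18, with a median of 0.64, were not tested. Among chromosomes without a called member, the median was also -0.43 on chromosome 17. On chromosome Y, where 6 genes were tested, it was -6.89. The cause of these chromosome differences between the groups was not tested.

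Because members of 1 family had moved apart, their ratio was read within each sample, where library size cancels. These pairs were chosen after the values had been seen, so the ratios carry no test. The log2 ratio of Kcnn4 to Kcnn3 per length was 4.15, 4.42 and 3.93 in 393P_vector and 11.50, 11.35 and 10.72 in 393P_ZEB1 replicates 1 to 3. That of Kcnk2 to Kcnk1 was -5.37, -5.04 and -4.42 in 393P_vector and 4.74, 3.95 and 4.71 in 393P_ZEB1 samples. The ratio of Kcnh1 to Kcnh2 also changed sign, from -4.02, -3.55 and -4.18 to 1.56, 1.63 and 1.39. For Kcnab1 to Kcnab3 the log2 ratio was near 0 in 393P_vector samples, at -0.16, -0.22 and 0.47, and was 3.87, 3.67 and 3.41 in 393P_ZEB1 samples. In 3 of these 4 pairs the sign was the same in all samples of a group, and Kcnab1 to Kcnab3 was the exception, through 393P_vector replicate 3. Kcnk2 to Kcnk5 was read too and stayed negative in every sample, with means of -5.12 ± 0.586 in 393P_vector and -2.13 ± 0.15 in 393P_ZEB1 (SD, n = 3). For Kcnk5 to Kcnk1 the means were 0.175 ± 0.18 and 6.59 ± 0.579 (SD, n = 3). In 393P_ZEB1 the ratios to Kcnk1 and Kcnn3 rest on 9 to 18 and 10 to 21 counts of those genes.

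**Figure D4:**
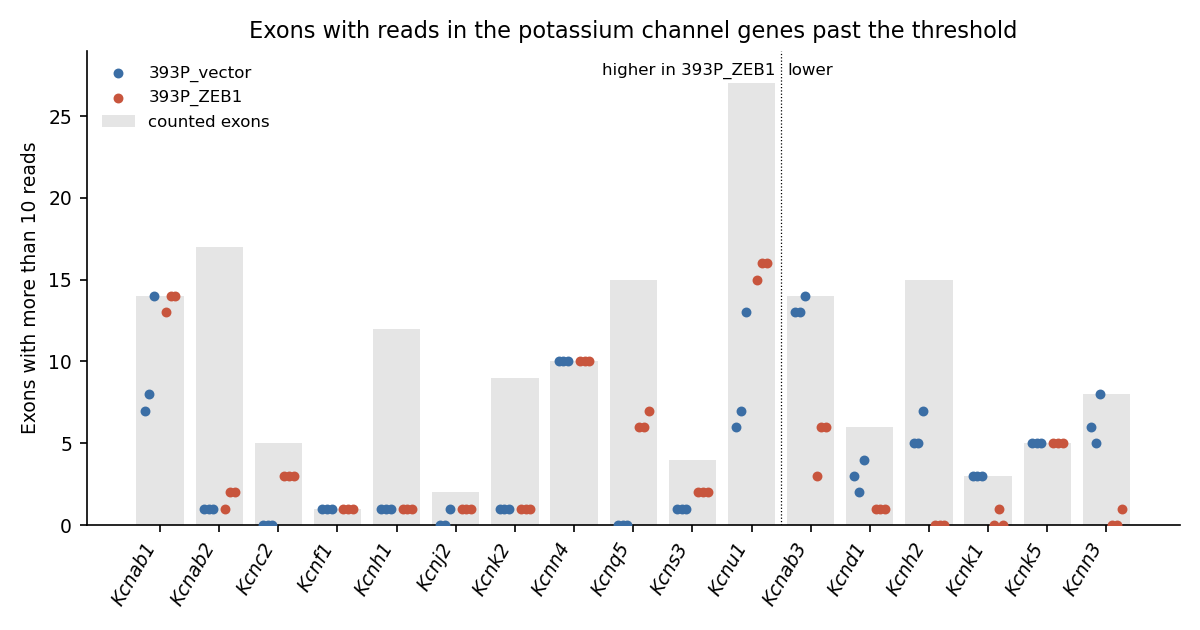
Number of exons with more than 10 reads (points, 1 per sample, blue 393P_vector and red 393P_ZEB1) against the number of counted exons (grey bars) for the 17 called members. Kcnn4 and Kcnk5 have more than 10 reads in all exons of every sample, whereas Kcnab2, Kcnh1 and Kcnk2 have more than 10 reads in 1 or 2 exons only. Exons with 10 or fewer reads are not counted, so the number also depends on depth and exon length.

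The other 63 members did not pass the filter, and none had more than 26 counts in a sample. Kcnk15 alone was at 0 counts in all 6 samples, where 3 counts, the limit that a count of 0 allows, would be 0.0379 to 0.0551 CPM. Any change in these genes below that scale was not detectable at this depth. When edgeR was run without the filter, 62 of the 63 could be fitted and 1, Kcnq1, was called at an adjusted p of 0.00681. Among all genes the filter removes, 2.14% were called in that fit. At an unadjusted edgeR p below 0.05 there were 6 of the 62 fitted members. The share of all removed genes at that threshold was not analysed here, so no excess can be read from this number. Kcnq1, the channel that works with KCNE subunits in secretory epithelia, had 22, 8 and 21 counts in 393P_vector and 0, 3 and 1 counts in 393P_ZEB1 samples. Kcnq1 contains the antisense transcript Kcnq1ot1, and reads from the opposite strand cannot be told apart if the counting did not use strand. Kcnd2, Kcnd3, Kcnq3 and Kcnj3, known from neurons and heart, were among the untested members, with at most 12 counts in a sample.

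ZEB1 binds the letters CACCTG, which read CAGGTG on the other strand, so the promoter windows of RefSeq on GRCm38.p6, from 250 bases before to 50 bases after each annotated start, were searched for both. Windows were found for 14 of the 17 called members, and 3 of the 14 held a match in at least 1 window. That is 21.4%, beside 21.1% of all genes tested that had a window. Of the 7 tested members with a window that were not called, 4 held a match. The matched stretches of 2 called members are shown as examples of where the letters lie, with the letters in capitals, 5′ to 3′ on the strand of the gene:

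Kcnab2 (called higher, chr4:152453152-152453181, minus strand): gagtgggcccgaCAGGTGcaggcacagagc

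Kcnc2 (called higher, chr10:112269791-112269820, plus strand): caagatccctgtCACCTGtaagcagacttc

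The match of Kcnab2 is in 1 of 3 windows and begins at position -224, with the start site at 0, and that of Kcnc2 is in 1 of 4 windows and begins at -214. These start sites are not those of the counted genes. The Kcnab2 match lies inside the counted gene, which on its minus strand starts at 152477549. The Kcnc2 match lies before the counted start at 112271123. Which start was used in these cells was not analysed here. A match is a description of the letters and not of binding, and sites outside these windows were not searched.

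Other genes of potassium handling were read from a list of 46 pumps, cotransporters, HCN channels, channel partners and organelle channels. Of these, 27 were tested, with 10 higher and 3 lower, beside 18.3% and 19.3% of all genes tested. Not every listed gene moves potassium itself. The 13 channel partners held 1 of the higher calls, and the 3 organelle channels held 1 of the lower calls. The beta subunits of the sodium-potassium pump, Atp1b1 and Atp1b3, were not called. Atp1b1 was at 42.8 ± 3.99 and 44.2 ± 0.325 CPM (SD, n = 3) and Atp1b3 at 63.0 ± 11.5 and 62.7 ± 3.01 CPM (SD, n = 3). Among the small FXYD subunits that tune the pump, Fxyd5 rose, with a log2 fold change of 1.23 ± 0.26 (SE, edgeR adjusted p = 0.00825), while the sparse Fxyd6 fell from 56, 55 and 77 counts in 393P_vector to 0, 3 and 4 counts in 393P_ZEB1 samples (edgeR adjusted p = 0.000367).

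Of 8 tested genes of the cation-chloride cotransporter family (symbols beginning with Slc12), 4 were higher and 1 was lower. Slc12a2, which brings sodium, potassium and chloride into the cell, rose from 158 ± 46.6 to 313 ± 24 CPM (SD, n = 3), a log2 fold change of 0.98 against a median of 0.64 for its chromosome 18. The potassium-chloride exporter Slc12a7 rose by 0.62 on the log2 scale, and the kidney cotransporter Slc12a1 rose by 2.42 from a low level. Slc12a8 was called lower at under 1 CPM, a call that was lost without 393P_ZEB1 replicate 1 (edgeR adjusted p = 0.0817). Of the HCN channels, cation channels opened by hyperpolarization, Hcn4 was at 0.215 ± 0.0937 and 2.88 ± 0.195 CPM (SD, n = 3), a log2 fold change of 3.78 (edgeR adjusted p = 9.34e-05). Hcn2 rose by 0.58, but its call was lost when 393P_vector replicate 1 (edgeR adjusted p = 0.0851) or 393P_ZEB1 replicate 2 or 3 (edgeR adjusted p = 0.0872 and 0.0735) was left out.

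**Figure D5:**
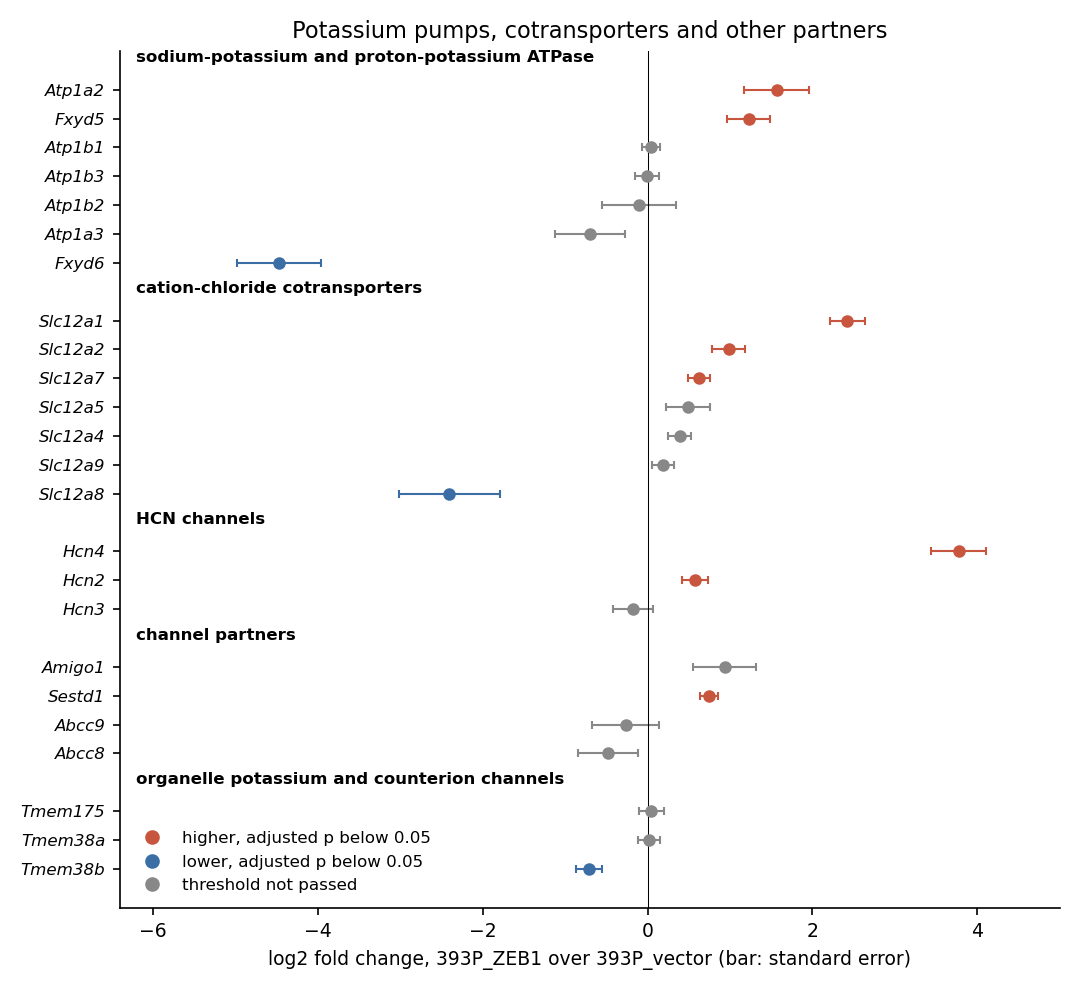
Log2 fold changes with standard errors from edgeR for 24 tested genes of the potassium transport list, by group. Hcn4 lies at 3.78 and Fxyd6 at -4.47, while the pump subunits Atp1b1 and Atp1b3 lie at 0.047 and -0.0058.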

How the data were processed

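RNA sequencing tables of 3 393P_vector and 3 393P_ZEB1 samples were used, grouped by their labels. For each of 24214 RefSeq features the authors deposited the raw read count, an RPKM (count scaled by exon length and library size, not used further), the exon length, the number of exons and the number of exons with more than 10 reads. The deposited exon columns carry other whole-number values that served to describe where reads lie. The aligner and counting program are not given in the sources used here. Coordinates are the deposited ones. Of the 92 members, 91 lie inside the RefSeq gene of the same symbol on GRCm38.p6 within 1000 bases, the exception being Kcnn1.

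Total counts per sample ranged from 54442450 to 79158012, so 3 counts, the smallest number taken as detected, were 0.0379 to 0.0551 CPM, a limit that covers counting error only. Tests were run with edgeR 4.0.16 under R 4.3.3. Low genes were removed with filterByExpr at a minimum count of 10, libraries were scaled by TMM, and 393P_ZEB1 was compared with 393P_vector by the robust quasi-likelihood test with Benjamini-Hochberg adjustment over 13892 genes. The standard error is the log2 fold change over the square root of the F statistic. Exact permutation tests were two-sided, on log2(CPM + 0.01). The fits were run on simulated counts that had the same dispersion for all genes and no outlying sample. Changes were set only in genes well above the filter level, so calls at low counts were not covered. Alternatives were DESeq2 1.42.0 (its size factors and Wald test), limma 3.58.1 with voom weights, other filters and thresholds, a replicate block, and leaving out each sample. Python 3.11.15, pandas 2.3.3, SciPy 1.17.1 and matplotlib 3.10.9 were used for the rest.

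Members and lists were chosen with earlier results of these data known. Every called member is named, given per sample, with the 10 most abundant per length; others are named by family. Genes of the promoter and ratio paragraphs and untested genes named with counts were picked after their values were seen. Some genes and 1 promoter site are not reported here, though the counts include them.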

Additional observations from a re-analysis of the deposited data

How the results depend on the processing

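Under every alternative the called members kept their direction, and 244 of 251 recomputed values also stayed past the threshold. The 7 that did not all belong to Kcnj2. Members called higher and lower numbered 10 to 11 and 6 to 8 with 1 sample left out in turn. They numbered 11 and 6 with DESeq2's Wald test and 11 and 7 with limma voom. In edgeR's test for changes beyond 1.5-fold they were 10 and 6. Requiring at least 10 counts in every sample gave 8 and 5, a filter that removes Kcnc2, Kcnj2, Kcnk1 and Kcnq5 from the test. Over all 13892 genes tested, 2823 were higher and 2957 lower with DESeq2's Wald test, and 3971 and 4100 with limma voom. In the 1.5-fold test they were 1081 and 1118. With at least 10 counts in every sample they were 2205 and 2215 of 12572 genes. With 1 sample left out they ranged from 1861 to 3700 and from 1784 to 3776, of 14106 to 14208 genes. A steady number of members is thus not a steady excess. Deviations from the group means correlated at 0.28, -0.21 and -0.04 between samples of equal replicate number, for replicates 1 to 3. Between samples of unequal number they correlated at -0.18 to 0.22. With 3 samples per group these values cannot decide whether equal numbers pair the samples. The replicate block gave 10 higher and 6 lower members, with Kcnj2 at an adjusted p of 0.0604 from edgeR. Over all genes tested it gave 2180 higher and 2256 lower. In the potassium transport list, 10 higher genes became 4 in the 1.5-fold test, and 3 lower genes became 1 with at least 10 counts in every sample. With 1 sample left out the list gave 8 to 12 higher and 2 to 3 lower genes. Among members not called, the log2 fold change changed sign only near 0: with a sample left out it ranged from -0.32 to 0.20 for Kcnc1, -0.21 to 0.093 for Kcnj14 and -0.23 to 0.087 for Kcnk6, which was 0.12 with limma voom. Kcnn1 was called lower without 393P_vector replicate 3 and with limma voom (log2 fold changes -0.61 and -0.60). Levels below about 0.2 CPM rest on fewer than 20 counts, and their fold changes are imprecise.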
